A study of Mus musculus with 34 samples.

Results

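The transcripts of 10 neuropeptide precursors of the cortex (Sst, Npy, Crh, Cck, Vip, Tac1, Tac2, Penk, Pdyn and Cort) were followed over 4 genotypes. All probe sets with 1 of these symbols in the platform annotation were taken, which gave 11 probe sets for the 10 genes, out of 45037 probe sets and 18193 genes with a symbol of their own. Tac1 had 2 probe sets and every other gene had 1. Cortex RNA was measured on Affymetrix whole-genome expression arrays, 1 array per mouse, at 15 wk of age in mice of mixed CBA and C57Bl/6 descent.

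WT mice (n = 8) carried neither mutation. Hdac4HET mice (n = 8, labelled HDAC4het) carried 1 targeted allele of Hdac4, which encodes a class IIa histone deacetylase. R6/2 mice (n = 9) carried a transgene for a mutant exon 1 fragment of human huntingtin (HTT), and Dble::R6/2 mice (n = 9) carried both. R6/2 is a fragment model, and Hdac4 could only be studied as a heterozygous loss because mice without both alleles die early after birth. Both sexes were present in every genotype.

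Neuropeptides are cut from larger precursor proteins, stored in dense-core vesicles and released during sustained firing to act on G protein-coupled receptors. In the cortex most of them are made by subsets of GABAergic interneurons. Sst, Vip and Cck name such subsets, Npy marks neurogliaform cells and part of the Sst cells, and Crh and Tac2 are found mainly within the Vip subset, Crh also in some Sst cells. Cck is made by many pyramidal cells as well. Penk, Pdyn and Tac1 are made by cortical interneurons too, but are far more abundant in the projection neurons of the neighbouring striatum.

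Some arrays stood apart. The level of Xist, which is transcribed in females, went against the sex label on 15 of the 34 arrays, most often in WT and Hdac4HET (5 each). R6/2 replicate 2 carried epidermal transcripts, and 4 arrays (WT replicates 2, 6 and 7 and Hdac4HET replicate 1) carried the pituitary hormone transcript Prl above a log2 value of 8. Where leaving these arrays out ended a call on a gene named here, or moved a list's count by over 1.5 times, the value without them is given beside it. The 3 probe sets of Hdac4 changed by -0.48, -0.51 and -0.36 (log2) in Hdac4HET against WT (limma adjusted p = 0.0036, 0.00743 and 0.0299), whereas of these only the second brightest passed in Dble::R6/2 against R6/2 (-0.61, adjusted p = 0.00033). Without the 4 arrays high in Prl the 3 changes in Hdac4HET were -0.47, -0.51 and -0.36 and none passed (adjusted p = 0.143, 0.143 and 0.21), and with sex read from Xist the third did not (adjusted p = 0.109). Their position relative to the targeted part of the gene was not analysed here. Array medians lay between 5.44 and 5.52, and the number of arrays limits the precision of each value.

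The promoters of the 2 pairs of related precursors that are compared below are shown first, because the members of each pair differed in their response to the transgene. Each line is the 250 bases before the transcription start, 5′ to 3′, from RefSeq on GRCm38.p6 (Sst chr16:23890845-23891094, minus strand; Cort chr4:149126764-149127013, minus strand; Tac1 chr6:7554811-7555060, plus strand; Tac2 chr10:127724228-127724477, plus strand). Capitals mark TGACG on either strand, the core of the cAMP response element (CRE), to which CREB binds.
Sst: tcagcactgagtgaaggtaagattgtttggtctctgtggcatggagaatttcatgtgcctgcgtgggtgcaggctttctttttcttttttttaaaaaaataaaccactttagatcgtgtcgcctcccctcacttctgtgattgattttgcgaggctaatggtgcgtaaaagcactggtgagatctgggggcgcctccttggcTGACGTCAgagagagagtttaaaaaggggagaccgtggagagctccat
Cort: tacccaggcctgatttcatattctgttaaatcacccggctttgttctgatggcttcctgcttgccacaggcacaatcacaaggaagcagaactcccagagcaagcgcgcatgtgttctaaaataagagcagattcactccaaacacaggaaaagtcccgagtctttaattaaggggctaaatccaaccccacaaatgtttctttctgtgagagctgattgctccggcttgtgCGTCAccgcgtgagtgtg
Tac1: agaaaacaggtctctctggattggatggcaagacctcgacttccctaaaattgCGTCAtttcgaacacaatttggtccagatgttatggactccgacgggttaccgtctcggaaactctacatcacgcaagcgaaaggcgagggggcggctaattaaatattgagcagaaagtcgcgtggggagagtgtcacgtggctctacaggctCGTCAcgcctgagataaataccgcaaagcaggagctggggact
Tac2: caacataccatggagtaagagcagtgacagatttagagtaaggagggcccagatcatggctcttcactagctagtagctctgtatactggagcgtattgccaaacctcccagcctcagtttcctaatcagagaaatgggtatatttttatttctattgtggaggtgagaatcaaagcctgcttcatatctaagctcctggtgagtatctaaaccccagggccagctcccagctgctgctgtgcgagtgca
The table held a promoter for 8 of the 10 genes, not for Crh and Penk, and 9 starts in all. The whole CRE, TGACGTCA, which is its own reverse complement and so contains the core on both strands, was present in Sst alone among them, with the cores at -48 and -45 relative to the start. It was found in 1.55% of all 32851 promoters of that length, and in any start of 1.77% of 27025 genes. The core was present in 5 of the 8 genes (Sst, Cck, Vip, Tac1 and Cort), against 19.8% of all genes in any start and 17.8% of all promoters. Cort held it at -18, Cck at -47, Vip at -79 and Tac1 at -197 and -43. It was not found in these windows of Npy, Tac2 and Pdyn. Both kinds of promoter occurred among the genes that fell in R6/2, as given below. A match describes these letters and is not evidence of binding.

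The first question was how the transgene altered these transcripts. In R6/2 cortex Sst, Npy, Crh, Tac2, Penk and Pdyn fell to between 37.3% and 44.5% of the WT level, Cck and Vip to 55.0%, and Cort to 80.8%, whereas Tac1 was not called. Of the 11 probe sets, 9 were called lower (limma, Benjamini-Hochberg adjusted p of 0.05 or less over all probe sets) and 0 higher. Over all 45037 probe sets, 26.9% were called and 12% were called lower. On 7 of the 11 every R6/2 array lay below every WT array, as it did on 3.03% of all probe sets. The median log2 change of the 11 was -1.17, against 0.01 for all probe sets. In bulk tissue, fewer cells of a type and less RNA per cell cannot be told apart.

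**Figure D1:**
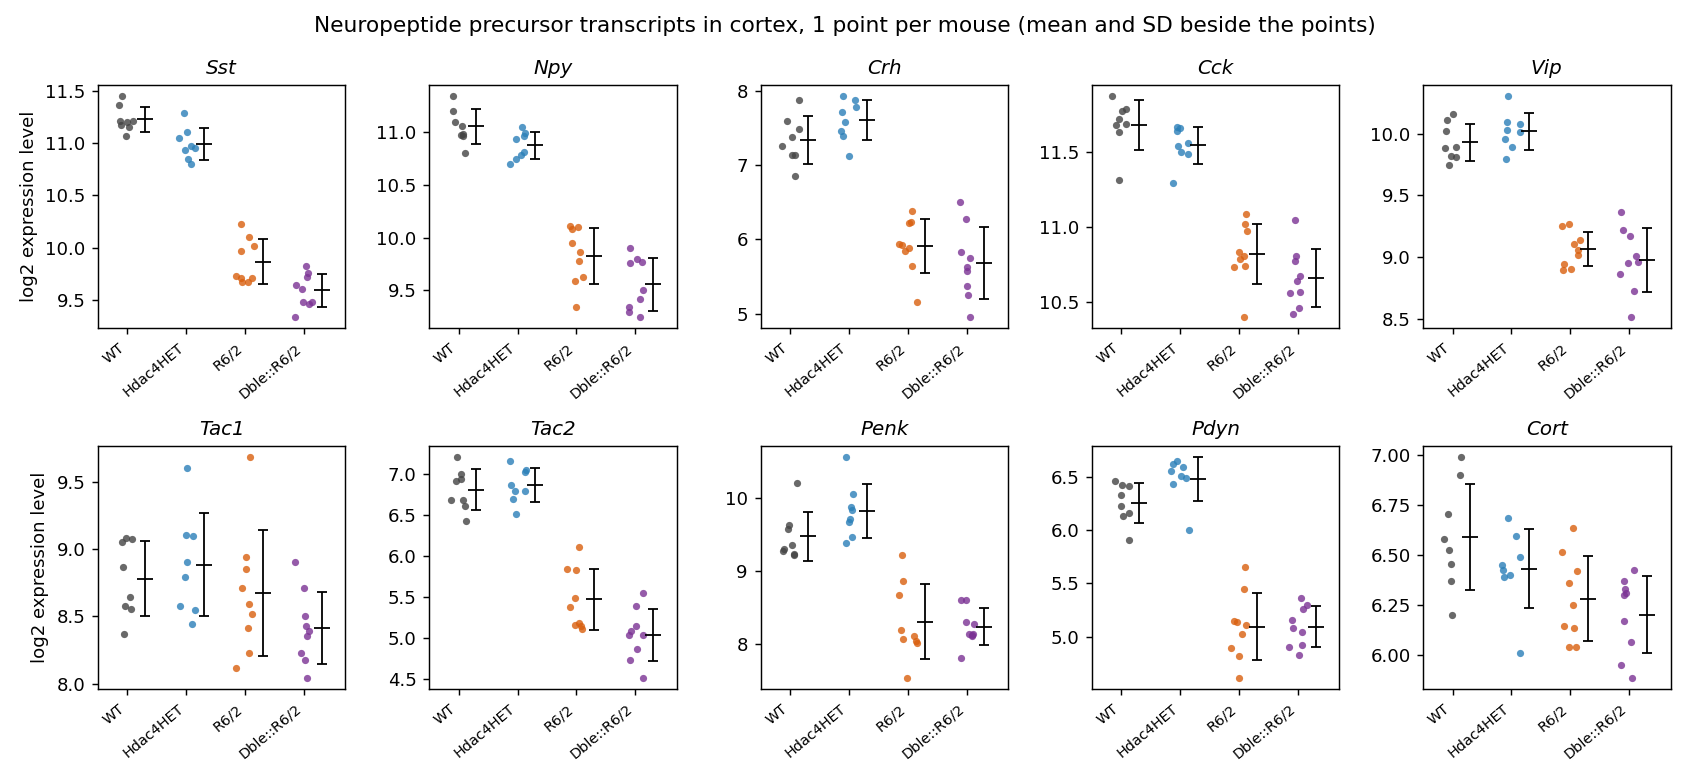
Log2 expression level of each precursor (vertical axis; the brighter Tac1 probe set) in every mouse of the 4 genotypes, 1 point per mouse, with the mean and SD beside the points; scales differ between panels. For Sst, Npy, Crh, Cck, Vip, Tac2 and Pdyn both R6/2 groups lie below all WT and Hdac4HET arrays, whereas the Tac1 groups overlap throughout.

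Somatostatin, encoded by Sst, dampens the dendrites onto which its interneurons synapse. Its log2 level ran from 11.07 to 11.45 in WT (median 11.21) and from 9.67 to 10.23 in R6/2 (median 9.72). The groups were more than a log2 unit apart at the medians and did not approach each other. Sst changed by -1.37 ± 0.08 (SE, limma adjusted p = 2.21e-09) and kept 38.8% of the WT level. Sst lay at the 0.32 percentile of all changes in this comparison.

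Neuropeptide Y inhibits transmitter release and is encoded by Npy. It was at 10.80 to 11.34 in WT (median 11.02) and at 9.35 to 10.11 in R6/2 (median 9.87). All R6/2 arrays were again below all WT arrays, and the change was -1.22 ± 0.10 (SE, limma adjusted p = 8.88e-08).

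Cortistatin, the product of Cort, is a relative of somatostatin that binds the same receptors. Cort lay at 6.20 to 6.99 in WT (median 6.55) and 6.04 to 6.63 in R6/2 (median 6.25), so that the groups overlapped and 4 of the 9 R6/2 arrays were below all WT arrays. The log2 change of -0.31 ± 0.11 (SE) passed narrowly (limma adjusted p = 0.0426). Without R6/2 replicate 2 it was -0.30 and did not pass (adjusted p = 0.0543), and the same held when any of 10 other single arrays was left out. Within each array, Sst was compared directly with Cort. The log2 change of Sst minus that of Cort was -1.06 (exact permutation test over arrays, two-sided, p = 8.23e-05, the smallest it can give, adjusted p = 0.000165 over 6 tests of this kind).

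Vasoactive intestinal peptide, encoded by Vip, comes from interneurons that inhibit other interneurons. Vip lay at 9.74 to 10.16 in WT (median 9.89) and 8.90 to 9.27 in R6/2 (median 9.06), without overlap, and changed by -0.86 ± 0.07 (SE, limma adjusted p = 7.98e-08). Corticotropin-releasing hormone is the stress peptide encoded by Crh. Its range was wider, 6.85 to 7.87 in WT (median 7.32) and 5.16 to 6.39 in R6/2 (median 5.92), and the groups did not overlap. The change of -1.42 ± 0.15 (SE, limma adjusted p = 1.57e-06) was the largest of the 10 genes.

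Cholecystokinin, from Cck, is the most abundant of these peptides in cortex and excites through the CCK-B receptor. Cck lay at 11.31 to 11.87 in WT (median 11.70) and 10.40 to 11.08 in R6/2 (median 10.81). The highest R6/2 array stayed below the lowest WT array, WT replicate 8, which was itself set apart from the other WT arrays. The log2 change was -0.86 ± 0.09 (SE, limma adjusted p = 9.58e-07).

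The tachykinins parted. Tac2, the precursor of neurokinin B, ran from 6.42 to 7.21 in WT (median 6.80) and from 5.11 to 6.11 in R6/2 (median 5.38), with no overlap and a change of -1.34 ± 0.14 (SE, limma adjusted p = 1.56e-06). Tac1, the precursor of substance P and neurokinin A, ran from 8.37 to 9.09 in WT (median 8.76) and from 8.12 to 9.69 in R6/2 (median 8.59) on its brighter probe set. R6/2 held both the lowest and the highest of these values. The change was -0.10 with a 95% interval from -0.46 to 0.26 (limma adjusted p = 0.728). The dimmer Tac1 probe set lay at 2.91 to 3.30 in both groups and gave -0.09 (adjusted p = 0.321). Only 9.67% of all probe sets were dimmer on average, so a fall could hardly show on it. Within arrays, the change of Tac2 minus that of Tac1 was -1.23 (exact permutation test, two-sided, adjusted p = 0.000494).

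Both opioid precursors fell. Penk, which encodes the enkephalins, lay at 9.22 to 10.20 in WT (median 9.33) and at 7.54 to 9.23 in R6/2 (median 8.12). Only R6/2 replicate 3, at 9.23, reached the WT range. The log2 change was -1.17 ± 0.19 (SE, limma adjusted p = 0.000154). Pdyn, which encodes the dynorphins, lay at 5.91 to 6.46 in WT (median 6.28) and 4.61 to 5.66 in R6/2 (median 5.11), did not overlap, and changed by -1.17 ± 0.12 (SE, adjusted p = 9.59e-07). The difference between the 2 changes within arrays was -0.00376 (exact permutation test, two-sided, adjusted p = 0.987), although Penk varied more between R6/2 mice (SD 0.52) than Pdyn did (SD 0.32).

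The calls of the 8 genes other than Cort and Tac1 held when any single array was left out. The change of Penk moved most, from -1.29 to -1.07, and those of Sst (-1.41 to -1.33) and Vip (-0.89 to -0.83) moved least.

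The same question was put to mice that lacked 1 Hdac4 allele, by comparing Dble::R6/2 with Hdac4HET. These groups share no arrays with R6/2 and WT. Again 9 of the 11 probe sets were called lower and 0 higher, where 23.1% of all probe sets were called and 9.98% were called lower. On 8 of them the groups did not overlap (3.01% of all probe sets). Here Penk joined the non-overlapping genes. In Dble::R6/2 against WT, which share arrays with the other comparisons, 10 were called lower (30.5% of all called, 13.7% lower) and 8 did not overlap (3.41%).

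The deepest changes in that pair were those of Crh and Tac2. Crh went from 7.13 to 7.93 in Hdac4HET (median 7.65) to 4.95 to 6.51 in Dble::R6/2 (median 5.63), and 26.3% was kept (log2 change -1.93 ± 0.18, SE, limma adjusted p = 1.43e-07). Tac2 went from 6.52 to 7.15 (median 6.83) to 4.51 to 5.55 (median 5.04), and 28.2% was kept (log2 change -1.83, limma adjusted p = 2.88e-09). In both genes the groups lay well apart.

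The remaining genes separated in the same way. Sst lay at 10.80 to 11.29 in Hdac4HET (median 10.96) and 9.33 to 9.83 in Dble::R6/2 (median 9.61). Npy lay at 10.69 to 11.05 (median 10.87) and 9.25 to 9.90 (median 9.50). Penk lay at 9.39 to 10.57 (median 9.78) and 7.82 to 8.61 (median 8.14), so that no Dble::R6/2 array came near the Hdac4HET range. Pdyn lay at 6.00 to 6.66 (median 6.54) and 4.83 to 5.37 (median 5.08). Vip lay at 9.80 to 10.30 (median 10.02) and 8.52 to 9.36 (median 8.96), and Cck at 11.29 to 11.66 (median 11.55) and 10.42 to 11.04 (median 10.64). Cck had the narrowest gap of these, and its groups still did not overlap. Only Tac1, at 8.45 to 9.60 and 8.04 to 8.91 on the brighter probe set, and Cort, at 6.01 to 6.69 and 5.89 to 6.43, overlapped between the groups.

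Penk (-1.59), Sst (-1.41), Pdyn (-1.39), Npy (-1.31), Vip (-1.04) and Cck (-0.88) fell as well (limma adjusted p between 2.28e-10 and 2.67e-07). Tac1 was called here, at -0.47 ± 0.14 on the brighter probe set (SE, limma adjusted p = 0.0227), with 6 of 9 Dble::R6/2 arrays below all Hdac4HET arrays. The dimmer Tac1 probe set (-0.08, limma adjusted p = 0.513) and Cort (-0.23, adjusted p = 0.0808) were not called. Within arrays the change of Sst minus that of Cort was -1.18, and that of Tac2 minus Tac1 was -1.36 (exact permutation test, two-sided, adjusted p = 0.000165 for each). Penk and Pdyn differed by -0.20 (adjusted p = 0.296).

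**Figure D2:**
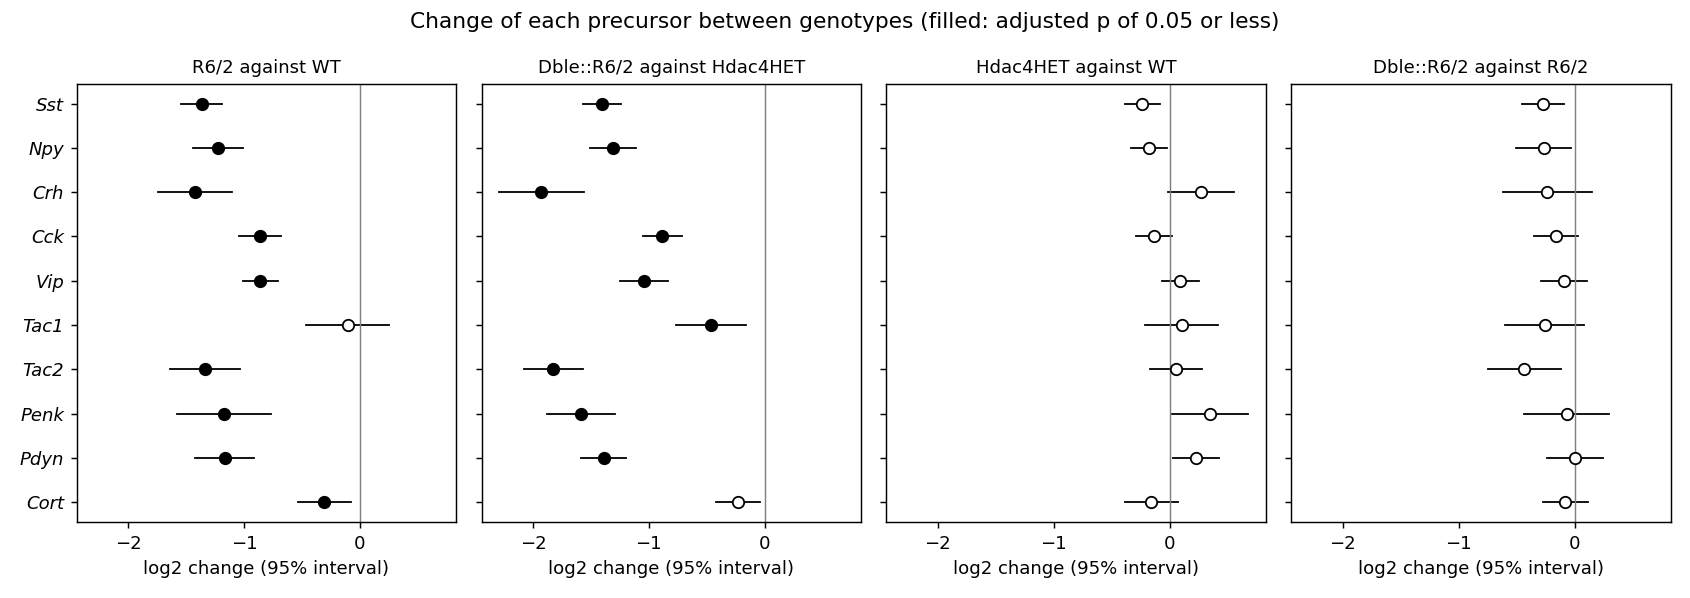
Log2 change of each precursor with its 95% interval (horizontal axis) in 4 comparisons of genotypes; the brighter Tac1 probe set is shown, and filled circles mark an adjusted p of 0.05 or less over all probe sets. In both comparisons of transgene carriers with mice without it 8 genes lie near or beyond -0.86, whereas no gene passes in the comparisons for the Hdac4 allele.

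The second question was whether loss of an Hdac4 allele altered these transcripts in WT or in R6/2 mice. Between Hdac4HET and WT, 0 of the 11 probe sets were called by limma, where 3.91% of all probe sets were called. An unadjusted p under 0.05 was found for 4 of the 11 and for 21.4% of all probe sets. The calls over all probe sets were unsteady, at 5 higher and 0 lower without the 4 arrays high in Prl and at 14 higher and 8 lower with sex read from Xist. Sst was nearest to the threshold. It lay at 10.80 to 11.29 in Hdac4HET (median 10.96) against 11.07 to 11.45 in WT, and 6 of 8 Hdac4HET arrays were below all WT arrays. Its change was -0.24 ± 0.07 (SE, limma adjusted p = 0.0653), and the adjusted p was 0.0238 without Hdac4HET replicate 3.

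The other 3 genes at an unadjusted p under 0.05 were Npy (-0.18), Penk (0.35) and Pdyn (0.22), with adjusted p of 0.169, 0.211 and 0.175 in limma. For Pdyn, 6 of 8 Hdac4HET arrays lay above all WT arrays, while replicate 7 lay at 6.00, within the WT range. The sign was mixed over the genes, with 5 of 11 probe sets lower. Crh, at 7.13 to 7.93 in Hdac4HET, was 0.27 above WT (95% interval -0.01 to 0.55, adjusted p = 0.256), and Cck changed by -0.14 (interval -0.29 to 0.02, adjusted p = 0.3). For Vip the change was 0.09 (interval -0.07 to 0.25), for Tac2 0.05 (-0.17 to 0.28), for Tac1 0.11 (-0.21 to 0.42) and for Cort -0.16 (-0.39 to 0.07). All 6 of these intervals included changes of either sign.

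In Dble::R6/2 against R6/2, 0 of the 11 probe sets were called, where 0.00666% of all probe sets were called by limma. An unadjusted p under 0.05 was found for 3 of the 11 and for 5.68% of all probe sets. Of the 11, 10 were lower, with a median change of -0.16 against -0.00 for all probe sets. Tac2 went from 5.11 to 6.11 in R6/2 to 4.51 to 5.55 in Dble::R6/2, with 6 of 9 arrays below all R6/2 arrays, and its change was -0.43 (95% interval -0.75 to -0.12, limma adjusted p = 0.789). Sst lay at 9.33 to 9.83 in Dble::R6/2 (median 9.61), with 6 of 9 arrays below all R6/2 arrays, and changed by -0.28 (interval -0.46 to -0.09, adjusted p = 0.789). Npy changed by -0.27 (interval -0.51 to -0.03, adjusted p = 0.869). The highest upper bound of the 11 intervals was 0.30, for Penk, and the interval for Sst ended at 93.7% of the R6/2 level. For Crh the change was -0.23 (interval -0.62 to 0.15), for Cck -0.16 (-0.35 to 0.03), for Vip -0.09 (-0.29 to 0.11) and for Tac1 -0.26 (-0.60 to 0.08). The opioid precursors moved least, Penk by -0.07 (-0.43 to 0.30) and Pdyn by 0.00163 (-0.24 to 0.24), and Cort by -0.08 (-0.27 to 0.11).

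The levels fell into the same order for several genes. For Sst, Npy, Cck and Cort the means ran from WT through Hdac4HET and R6/2 to Dble::R6/2. For Crh, Vip, Tac1, Tac2 and Penk the order was Hdac4HET, WT, R6/2 and Dble::R6/2, and for Pdyn the R6/2 groups stood level at 5.09 and 5.10. Within each order the neighbours that share a transgene status were not told apart by limma. Hdac4HET against R6/2, which differ in both mutations, passed on 8 of the 11 probe sets (9.55% of all were called higher in Hdac4HET), and not for Tac1 or Cort.

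The effect of the transgene was compared between the 2 Hdac4 backgrounds in a fit over all 4 genotypes. Of the 11 probe sets 0 were called, and 0.00222% of all probe sets were called by limma. An unadjusted p under 0.05 was found for 2 of the 11 and for 9.87% of all probe sets. The 2 were Tac2, whose fall was larger by -0.49 ± 0.20 with the targeted allele (SE, limma adjusted p = 0.398), and Crh (-0.51 ± 0.24, SE, adjusted p = 0.497).

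The effect of the targeted allele averaged over mice with and without the transgene was added after the pairwise results were seen. It called 1 of the 11 probe sets, Sst, where 0.357% of all probe sets were called. Its change was -0.26 ± 0.06 (SE, limma adjusted p = 0.0398), and the 95% interval ran from -0.37 to -0.14. The call was lost with sex read from Xist (-0.26, adjusted p = 0.0885), with the replicate number as a block (-0.26, adjusted p = 0.0515), without the 4 arrays high in Prl (-0.25, adjusted p = 0.14) and without any of 16 of the 34 single arrays. Npy, at -0.22, did not pass (adjusted p = 0.115).

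The receptors and the binding protein of these peptides were followed as a list of 23 genes, all of them measured. In R6/2 against WT, 9 were called lower, 0 higher and 14 were not called (39.1% called, against 26.9% of all probe sets), with a median change of -0.11. This list and those below use the brightest probe set of each gene, whereas the share over all probe sets includes dim ones. With all probe sets of a gene averaged, 2531 of 18193 genes were called lower and 3261 higher. Among the brighter probe sets alone, 4325 of 22518 were called lower and 5808 higher. An excess of a list over probe sets of like brightness was not tested. Crhbp, which encodes a secreted protein that sequesters CRH, changed by -1.53 ± 0.16 (SE), from 8.18 ± 0.15 in WT to 6.65 ± 0.48 in R6/2 (SD, n = 8 and 9, limma adjusted p = 1.12e-06). Cckbr, for the CCK-B receptor, went from 9.31 ± 0.20 to 8.51 ± 0.14 (SD), a change of -0.81 (adjusted p = 9.59e-07). Sstr2, for a somatostatin receptor, and Vipr1, for a VIP receptor, changed by -0.69 and -0.59 (adjusted p = 1.7e-05 and 3.17e-06). The other called genes, named after their values were seen, were Crhr1, Npy1r, Npy5r, Oprd1 and Sstr4, at changes between -0.57 and -0.24. Npy1r did not pass without R6/2 replicate 2 (adjusted p = 0.0778) or with sex read from Xist (0.0614), and neither Npy1r (0.34) nor Npy5r (0.123) passed without the arrays high in Prl. Tacr1 (0.10) and Tacr3 (-0.02), the substance P and neurokinin B receptors, were not called.

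In Dble::R6/2 against Hdac4HET, 10 of the 23 were called lower and 0 higher (43.5%, against 23.1% of all probe sets), with a median of -0.19. Crhbp changed by -1.47, Cckbr by -1.16, Vipr1 by -0.90 and Sstr2 by -0.87. In Dble::R6/2 against R6/2, 0 of the 23 were called. In Hdac4HET against WT 1 was called (4.35%, against 3.91% of all probe sets), Sstr4, at 0.30 (limma adjusted p = 0.0187). Sstr4 lay at 8.92 ± 0.11 in WT and 9.22 ± 0.05 in Hdac4HET (SD, n = 8 each). It did not pass without the arrays high in Prl (0.26, adjusted p = 0.189) or with sex read from Xist (0.29, adjusted p = 0.0769).

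**Figure D3:**
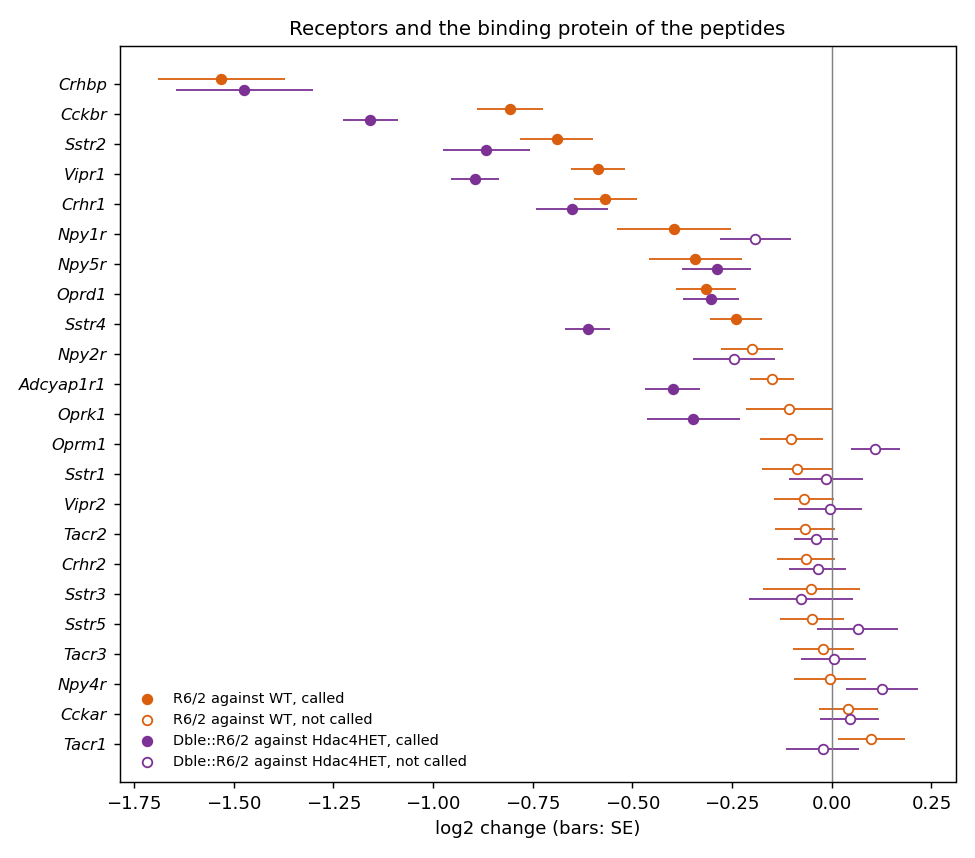
Log2 change with its SE (horizontal axis) of the 23 receptor and binding protein genes in R6/2 against WT and in Dble::R6/2 against Hdac4HET; filled points passed the test over all probe sets. Crhbp, Cckbr, Sstr2, Vipr1 and Crhr1 are lowest in the first comparison, and no gene passes in the upward direction.

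Of 21 measured genes of peptide processing and dense-core vesicles, 7 fell and 2 rose in R6/2 against WT (42.9% called, against 26.9% of all probe sets), with a median of -0.04. Among the brighter probe sets alone, 4325 of 22518 were called lower and 5808 higher. Furin, a precursor-cleaving protease, rose by 0.68, and the granins Scg3 and Chga and the vesicle calcium sensor Syt7 changed by -0.52, -0.43 and -0.43 (limma adjusted p between 6.06e-07 and 3.76e-05). The cleaving enzyme Pcsk1 and the trimming enzyme Cpe were not called, both at -0.04. Pcsk2, which was also on the list, was not measured. In Hdac4HET against WT 3 of the 21 were called (14.3%, against 3.91% of all probe sets), chosen here after their values were seen. Among the brighter probe sets alone, 1296 of 22518 were called lower and 1167 higher in that comparison. Pam, which amidates peptide ends, was at 0.77 (limma adjusted p = 0.0187) and Pcsk5 at 0.28 (adjusted p = 0.0423), whereas Qpct, which forms the blocked amino terminus of some peptides, was at -0.60 (adjusted p = 0.0361). Without the arrays high in Prl, Pam passed (0.54, adjusted p = 0.0479), and Pcsk5 (0.18, adjusted p = 0.313) and Qpct (-0.60, adjusted p = 0.2) did not. With sex read from Xist none of the 3 passed (adjusted p = 0.0769, 0.135 and 0.127).

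Among 24 further measured peptide genes, 5 fell and 3 rose in R6/2 against WT (33.3% called, against 26.9% of all probe sets), with a median of -0.04. Apln (apelin, -1.04), Nppc (C-type natriuretic peptide, -0.97) and Cartpt (-0.92) were lowest, and Nts, for neurotensin, rose by 0.78 (limma adjusted p between 5.02e-07 and 0.000115). In Dble::R6/2 against Hdac4HET 5 fell and 1, Nts, rose (0.85, adjusted p = 0.000478), so that 25.0% of the 24 were called, against 23.1% of all probe sets. In both comparisons for the Hdac4 allele 0 of the 24 were called by limma.

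Markers of the cells that make these peptides moved in the same comparison. Of 31 interneuron class markers, 14 fell and 3 rose in R6/2 against WT (54.8% called, against 26.9% of all probe sets), with a median of -0.20. Among the brighter probe sets alone, 4325 of 22518 were called lower and 5808 higher. Lamp5, a membrane protein of neurogliaform and some pyramidal cells, changed by -1.63, Elfn1, a synaptic protein of Sst cells, by -0.91, Gad1, which makes GABA, by -0.90 and Ndnf, of superficial neurogliaform cells, by -0.88. In contrast Lhx6, a transcription factor of Sst and Pvalb cells, was at 0.02, and the vesicular GABA transporter Slc32a1 at -0.20, and neither was called (adjusted p = 0.869 and 0.105 in limma). The summed linear level of the 31 ran from 19237 to 21536 in WT and from 11934 to 13536 in R6/2. Such sums weigh the brightest genes of a list most, and 14 of the 31 were not called. Of 15 cortical excitatory neuron markers 7 fell and 1 rose (53.3% called, median -0.31), with Cux2 at -1.14, Rasgrf2 at -1.06, Tbr1 at -0.51 and Camk2a at -0.42. Their summed level ran from 17669 to 20328 in WT and from 13360 to 15396 in R6/2. Without the arrays high in Prl 4 of the 15 fell and 0 rose (26.7% called). In that setting fewer probe sets passed in all, 3619 lower and 4421 higher of 45037.

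The hippocampus, which lies under the cortex, also makes several of these peptides, and its markers were read too. Of 12 hippocampal markers 4 fell (Wfs1 at -1.36, Calb1 at -0.62, Fibcd1 at -0.50 and Capn3 at -0.42) and 0 rose in R6/2 against WT. These were 33.3% of the list, against 26.9% of all probe sets called, and the median was -0.03. Capn3 did not pass without the arrays high in Prl (adjusted p = 0.105). Calb1 and Prox1 also stand among the interneuron markers. The summed linear level of the 12 ran from 3811 to 4700 in WT and from 2581 to 3103 in R6/2, and the groups did not overlap. The part of the interneuron, excitatory and hippocampal markers in the peptide changes was not tested.

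Striatal tissue next to the dissected cortex is rich in Penk, Pdyn and Tac1, so striatal projection neuron markers were read beside them. Of the 18 measured, 3 fell (Ppp1r1b at -1.06, Rasd2 at -0.72 and Rarb at -0.62) and 2 rose (Syndig1l at 0.60 and Gng7 at 0.38) in R6/2 against WT, 27.8% of the list against 26.9% of all probe sets, with Drd1 at -0.21 and Drd2 at -0.05 not called. Without the arrays high in Prl only Ppp1r1b and Rasd2 of these 5 passed. In Dble::R6/2 against Hdac4HET 6 of the 18 fell and 0 rose (33.3%, against 23.1% of all probe sets), with a median of -0.29. In Dble::R6/2 against WT 10 fell and 0 rose (55.6%, against 30.5% of all probe sets), with a median of -0.32. The summed linear level of the 18 ran from 4605 to 5566 in WT, 4873 to 6014 in Hdac4HET, 3928 to 5969 in R6/2 and 3777 to 5194 in Dble::R6/2.

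A striatal score, the mean log2 level of these markers after the genotype means were removed, was set against each precursor over the 34 mice. Two-sided permutation within genotype gave 2 of 10 relations past an adjusted p of 0.05. Penk followed the score at a Pearson r of 0.90 and a Spearman rho of 0.81 (permutation p = 1e-05 for each, the smallest the shuffles can give, adjusted p = 0.0001 for r). The relation held without the 2 mice farthest from the median Penk level (r = 0.85) and within each genotype (r between 0.80 and 0.94). Tac1 gave r = 0.72 and rho = 0.54 (permutation p = 8e-05 and 0.00236, adjusted p = 0.0004 for r). Its r was 0.52 without the 2 mice farthest from the median Tac1 level, and ran from 0.14 in WT to 0.93 in R6/2. Pdyn gave r = 0.33 (permutation p = 0.106, adjusted p = 0.354) and Sst 0.21 (p = 0.31, adjusted p = 0.761).

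**Figure D4:**
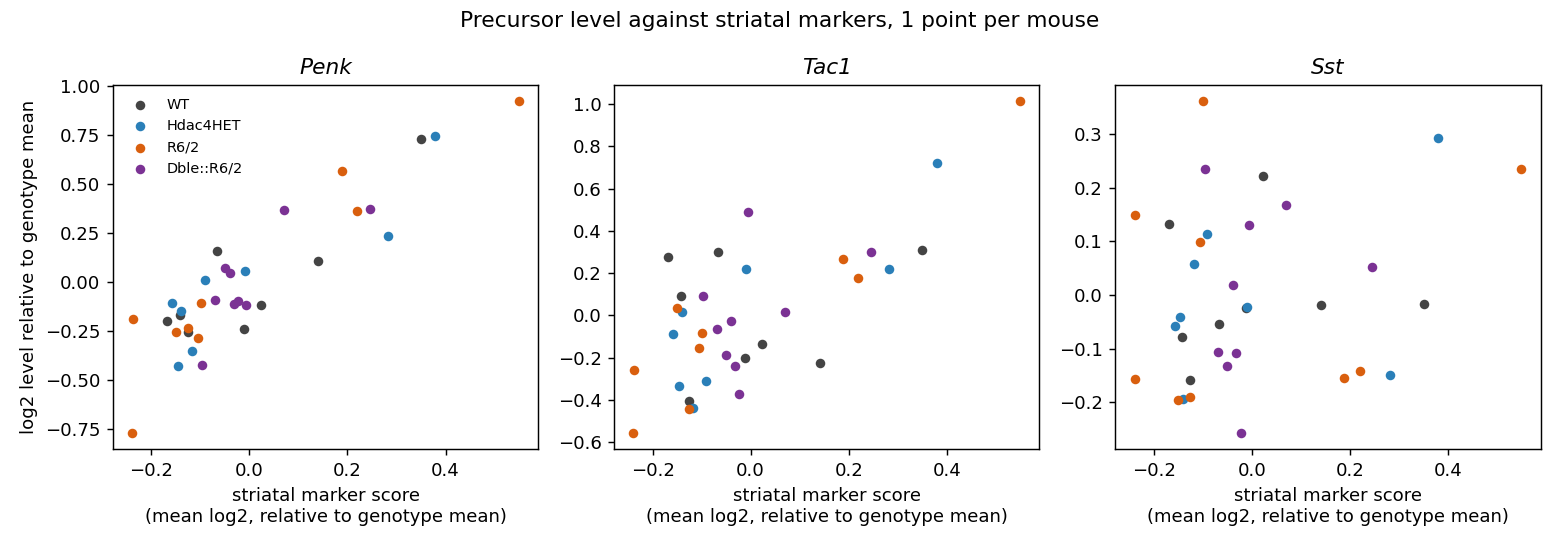
Log2 level of Penk, Tac1 and Sst (vertical axes) against the striatal marker score (horizontal axis, mean log2 level of 18 genes), both relative to the genotype mean, 1 point per mouse. Penk rises along the score in every genotype, with r = 0.90 over the 34 mice, and Sst shows a wide scatter.

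The mouse with the highest score was R6/2 replicate 3, whose marker mean of 7.12 exceeded the other R6/2 arrays, and this was the array in which Penk reached 9.23 and Tac1 9.69. WT replicate 3, highest in its group for both the markers (7.09) and Penk (10.20), and Hdac4HET replicate 3 (7.18 and 10.57) stood likewise. With the marker mean as a covariate, added after the data had been seen, Penk still fell in R6/2 against WT (-0.87, limma adjusted p = 2.86e-06) and in Dble::R6/2 against Hdac4HET (-0.90, adjusted p = 0.000396). Pdyn changed by -1.10 and -1.24 and Sst by -1.35 and -1.28 in the same fits. Tac1 turned from -0.47 to 0.13 in Dble::R6/2 against Hdac4HET (adjusted p = 0.784), so that its call there did not survive. Some of these markers changed with the transgene, and the covariate removes their change as well.

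The precursors were also compared with each other over the 34 mice after removal of the genotype means. Of 45 pairs, 7 passed an adjusted p of 0.05 by two-sided permutation within genotype. Tac1 and Penk were closest (r = 0.75, rho = 0.61, permutation p = 2e-05 and 0.00041, adjusted p = 0.0009 for r), with values from 0.14 in Dble::R6/2 to 0.92 in R6/2. Their r was 0.61 without the farthest 2 mice, here those farthest from the median level of the first gene named in a pair. Crh and Vip, which share a cell class, gave r = 0.69 and rho = 0.63 (permutation p = 7e-05 and 0.00025, adjusted p = 0.00157 for r). That relation was at 0.62 without the farthest 2 and between 0.50 and 0.82 within each genotype. Tac2, also found mainly within the Vip subset, gave r = 0.16 with Vip and 0.23 with Crh, and neither passed (permutation, adjusted p = 0.551 and 0.484).

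Sst took part in 4 of the 7 pairs. With Tac2 it gave r = 0.61 and rho = 0.57 (permutation p = 0.00057 and 0.00148, adjusted p = 0.00855 for r), with Npy 0.54 and 0.52, with Pdyn 0.53 and 0.51 and with Cck 0.51 and 0.45 (permutation p of r = 0.00322, 0.00408 and 0.00459, adjusted p = 0.0295 for each). For rho the adjusted p was 0.0222 with Tac2, 0.0367 with Npy and with Pdyn, and 0.0874 with Cck, which did not pass. The pairs with Cck and Pdyn also did not pass for r with quantile normalization (adjusted p = 0.0892 and 0.0522) or without R6/2 replicate 2 (0.0584 for each). Within WT the r of Sst was 0.04 with Tac2, 0.07 with Npy and 0.08 with Cck, and with Pdyn it had the opposite sign (-0.50). Without the farthest 2 mice r over all genotypes was 0.57 with Tac2, 0.57 with Npy, 0.46 with Pdyn and 0.43 with Cck. Cck and Tac2 made the remaining pair (r = 0.52, rho = 0.53, permutation p = 0.00387 and 0.00282, adjusted p = 0.0295 for r), at 0.58 without the farthest 2. Sst and its relative Cort gave r = 0.20 (permutation p = 0.274, adjusted p = 0.484).

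**Figure D5:**
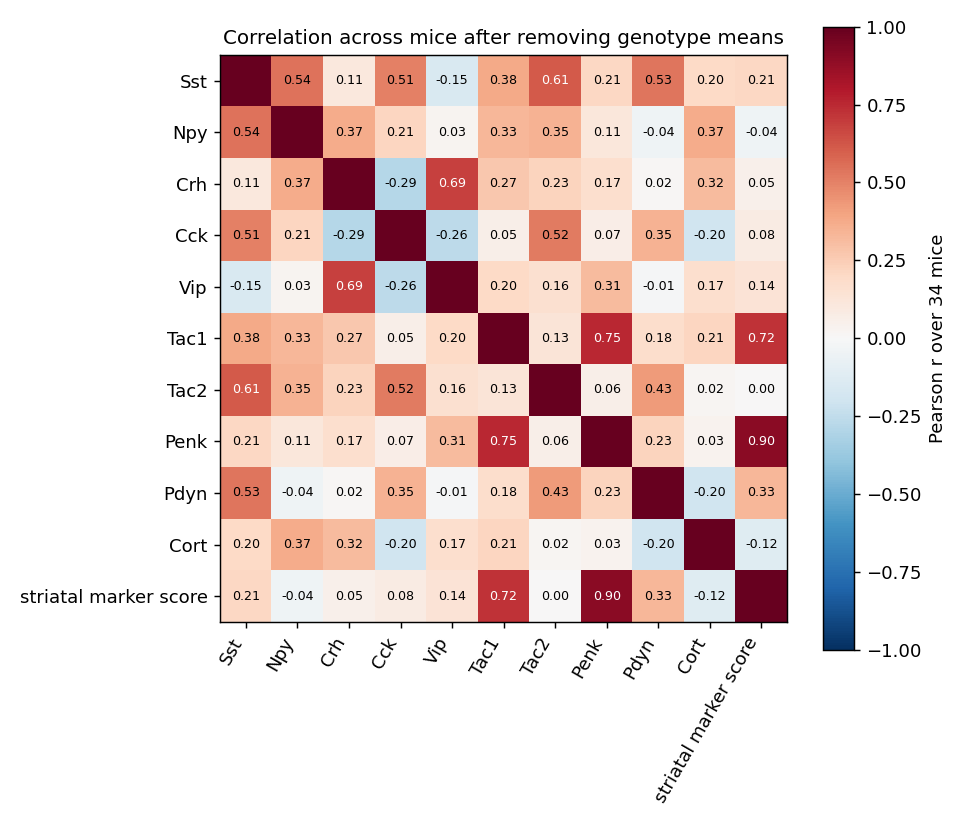
Pearson r (colour and number) between the precursors, and with the striatal marker score, over 34 mice after the mean of each genotype was removed. Penk, Tac1 and the striatal score form one block (0.72 to 0.90), Crh and Vip reach 0.69, and Sst is joined to Npy, Cck, Tac2 and Pdyn at 0.51 to 0.61.

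The genes outside the 10 that varied most like each precursor over the 34 mice, out of 18183 searched, are given as a description. For Penk they were the receptor gene Gpr6 (r = 0.85), the nuclear receptor gene Rxrg (0.83) and the potassium channel gene Kcna5 (0.81), and for Tac1 they were Rxrg (0.73), Rgs9 (0.72) and the dopamine receptor gene Drd2 (0.67). Gpr6, Rgs9 and Drd2 belong to the striatal markers. For Sst the closest was Pnoc, the nociceptin precursor (0.75), followed by Necap2 (0.69) and Gadd45g (0.63). For Cck they were Ddah1, Tubb4b and Gpr37l1 (0.80 each), and for Npy Chac1 (0.73), Pantr1 (0.72) and Lgals1 (0.70). The closest genes to Crh, Vip, Tac2, Pdyn and Cort were Cdk2ap1 (0.74), Dcaf5 (0.76), Zdhhc22 (0.74), A530021J07Rik (0.62) and 1700001C19Rik (0.77).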

How the data were processed

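Cortex RNA of 34 mice was hybridised by the authors to Affymetrix arrays, 1 per mouse, and each deposited value is the log2 level of 1 probe set. How background was corrected and probes were summarised is not given in the sources used here. Groups came from the genotype in the labels. Pairs of genotypes were compared by lmFit and eBayes from limma 3.58.1 (R 4.3.3) without covariates or a filter on dim probe sets, with Benjamini-Hochberg adjustment over all 45037 probe sets and calls at an adjusted p of 0.05 or less. The interaction and the mean effect of the Hdac4 allele used all 4 genotypes. The fits were first run on simulated arrays in which 200 probe sets had been changed. Correlations used 1e+05 shuffles within genotype in Python 3.11.15, exact permutation tests used scipy 1.17.1, and figures matplotlib 3.10.9.

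The precursors and the lists were chosen with earlier results of these data known. Every probe set of the 10 genes is reported. For lists, the brightest probe set stood for a gene and the 4 called genes that changed most between R6/2 and WT were named, others being named after their values were seen. Symbols were updated through a RefSeq table of GRCm38.p6, which gave names for 34741 probe sets, and tests compared genotypes within a probe set, or differences between probe sets of the same array. Summed linear levels of lists are descriptions. Alternatives were quantile normalization, brighter probe sets only, array weights, trend and robust variance, sex from the labels or from Xist, the replicate number as a block, a single fit of all genotypes, the methods' t-test, gene means over probe sets, and leaving out arrays. The comparison within related precursors, the mean effect of the allele, the striatal covariate and the alternatives for lists and Hdac4 were added after the data had been seen. Protein sequences were not used here. Every test took the mouse as the unit, and P-values set a difference or relation against the variation between mice.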

Additional observations from a re-analysis of the deposited data

Results flagged for a closer look

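In 5 of 44 groups of arrays, 1 array lay far from the others of its genotype by Dixon's criterion, which chance meets in about 1 of 20 groups. Cck was lowest in WT replicate 8 (11.31) and in Hdac4HET replicate 6 (11.29). Penk was highest in WT replicate 3 (10.20), the WT array with the highest striatal markers. Pdyn was lowest in Hdac4HET replicate 7 (6.00), and Cort in Hdac4HET replicate 2 (6.01). Without Hdac4HET replicate 2, Cort passed in Dble::R6/2 against Hdac4HET (-0.29, limma adjusted p = 0.0159). What set these arrays apart was not tested.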

How the results depend on the processing

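The number of the 11 probe sets called was 8 or 9 for R6/2 against WT, 8 to 10 for Dble::R6/2 against Hdac4HET and 8 to 11 for Dble::R6/2 against WT under the alternatives run, and 0 for Dble::R6/2 against R6/2 and the interaction. For Hdac4HET against WT it was 1, Sst, with quantile normalization (limma adjusted p = 0.0496), brighter probe sets only (0.0427) and trend and robust variance (0.0441), and 0 to 1 when single arrays were left out. The mean effect of the Hdac4 allele called 0 with sex read from Xist, with the replicate number as a block (Sst adjusted p = 0.0515) and without the arrays high in Prl, and 0 to 1 without single arrays, 0 in 16 of 34 cases. Correlations of same-numbered arrays ran from -0.35 to 0.45. Whether mice of the same replicate number shared a litter, a dissection or a batch was not tested. With the block, Cort in R6/2 against WT (adjusted p = 0.0748) and Tac1 in Dble::R6/2 against Hdac4HET (0.0662) also did not pass. Cort did not pass by the methods' t-test either (0.0648). In Dble::R6/2 against WT, Tac1 (-0.36, adjusted p = 0.0302) was lost with sex read from Xist (0.0503), with all genotypes fitted together (0.0992), with the methods' t-test (0.0523) and without any of 7 single arrays. It was also lost there with the striatal covariate (-0.19, limma adjusted p = 0.615). Cort, called in that comparison at -0.39 (adjusted p = 0.00786), was lost with the same covariate (-0.34, adjusted p = 0.245). The pairs of precursors that passed numbered 5 with quantile normalization and without R6/2 replicate 2, which lost Sst with Cck and with Pdyn.

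A called change turned sign once, that of Tac1 in Dble::R6/2 against Hdac4HET, from -0.47 to 0.13 with the striatal covariate. The other changes that turned had not been called. With the striatal covariate, Tac1 was at 0.11 in R6/2 against WT, and 0.0417 in Dble::R6/2 against R6/2, its dimmer probe set at 0.0174 in Dble::R6/2 against Hdac4HET, and Penk at 0.29 in Dble::R6/2 against R6/2. Tac1 in Hdac4HET against WT was at -0.075 without the arrays high in Prl. Pdyn in Dble::R6/2 against R6/2 was at -0.000488 with quantile normalization, -0.12 with array weights and -0.00195 with sex read from Xist, and Penk minus Pdyn was at 0.00759 with quantile normalization. Without single arrays, Tac2 in Hdac4HET against WT ran from -0.00105 to 0.11, and Penk and Pdyn in Dble::R6/2 against R6/2 from -0.16 to 0.047 and from -0.0587 to 0.0723. The causes were not tested.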
